A study of Homo sapiens with 6 samples.

Results

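The 5 acrocentric human chromosomes, 13, 14, 15, 21 and 22, carry the nucleolar organizers on their short arms, and the results below describe every listed peak on them. Members were all peaks of the 4 deposited lists on these chromosomes in hg19 coordinates, 10520 of 84817 peaks in all, and they were set against the 72271 peaks on the other 17 autosomes. The peaks came from chromatin immunoprecipitation with sequencing (ChIP-seq) in LNCaP, an established human prostate cancer line, exposed for 6 h to 1 µM BMH-21 or to the vehicle DMSO. For each treatment 1 library was precipitated for RNA polymerase I (Pol I) and 1 for serine 5-phosphorylated RNA polymerase II (called Pol II below), and 2 input libraries were not analysed here. With 1 library per group there is no replicate error and no test, and the exact 95% intervals given here, Clopper-Pearson or Poisson, cover no error but that of counting peaks. They treat each peak as independent, so they are too narrow where neighbouring peaks cluster. The number of reads behind each list is not given in the sources used here, so a difference in peak number between lists cannot be told apart from a difference in depth, enrichment or peak selection.

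Nucleolar organizers are tandem arrays of ribosomal RNA genes, the template that Pol I transcribes, and the nucleolus forms around them. The arrays sit on the short arms, toward the telomere from the centromere, and most of that sequence is missing from hg19. The peaks therefore describe mainly the flanking chromosome. Whether any listed peak falls on ribosomal gene sequence was not tested. BMH-21 is a DNA intercalator that inhibits Pol I transcription. Phosphorylation of serine 5 in the C-terminal repeats of Pol II marks polymerase at initiation and early elongation. The sequence next to acrocentric centromeres is rich in segmental duplications shared between chromosomes, so reads there can fit several places. How such reads were placed is not given in the sources used here. LNCaP cells are aneuploid, and copy number was not measured here. No sequence is printed because no genome of the files' build was at hand.

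The acrocentric chromosomes held 198 of 1847 autosomal Pol I peaks after BMH-21 and 5141 of 41541 after DMSO. They held 1656 of 11221 autosomal Pol II peaks after BMH-21 and 3525 of 28182 after DMSO. The listed peaks of these chromosomes span 337 Mb, which is 12.5% of the autosomal span measured in the same way, from the first to the last listed peak of any list without the stretch around the centromere. For Pol I the acrocentric share was 10.7% of peaks after BMH-21 (interval 9.35 to 12.2) and 12.4% after DMSO (12.1 to 12.7). For Pol II it was 14.8% after BMH-21 (14.1 to 15.4) and 12.5% after DMSO (12.1 to 12.9). The share of Pol II peaks after BMH-21 was therefore above the share of length, the share of Pol I peaks after BMH-21 was below it, and both DMSO lists were close to it.

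In peaks per Mb, the BMH-21 Pol I list had 0.588 on the acrocentric chromosomes (0.509 to 0.675) and 0.699 on the other autosomes (0.666 to 0.734). The DMSO Pol I list had 15.3 on the acrocentric chromosomes (14.8 to 15.7) and 15.4 on the others (15.3 to 15.6). The BMH-21 Pol II list had 4.91 on the acrocentric chromosomes (4.68 to 5.16) and 4.06 on the others (3.98 to 4.14). The DMSO Pol II list had 10.5 on both (10.1 to 10.8 on the acrocentric chromosomes and 10.3 to 10.6 on the others). The intervals of acrocentric and other autosomes are apart for the BMH-21 Pol II list alone. In that list 25.2% of the acrocentric peaks lay in the clusters described below, which the intervals do not take into account.

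The 5 chromosomes were unlike each other. Chromosome 13, known to be poor in genes, had the lowest density of all 22 autosomes in each of the 4 lists. It had 0.354 Pol I peaks per Mb after BMH-21 and 10.5 after DMSO, and 2.28 Pol II peaks per Mb after BMH-21 and 6.00 after DMSO. Chromosome 21 had the highest Pol II density of the 22 autosomes after BMH-21, at 10.2 peaks per Mb (9.14 to 11.3), and ranked 9 after DMSO, at 11.1 (10.0 to 12.2). Chromosome 22, known to be rich in genes, had 5.81 Pol II peaks per Mb after BMH-21 and 17.3 after DMSO, which ranked 5 and 4. Chromosomes 14 and 15 had 4.98 and 5.28 Pol II peaks per Mb after BMH-21, and 10.6 and 12.4 after DMSO. For Pol I after DMSO, chromosomes 14, 15, 21 and 22 lay between 16.2 and 17.8 peaks per Mb, all above the median of the other autosomes, 15.4.

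**Figure D1:**
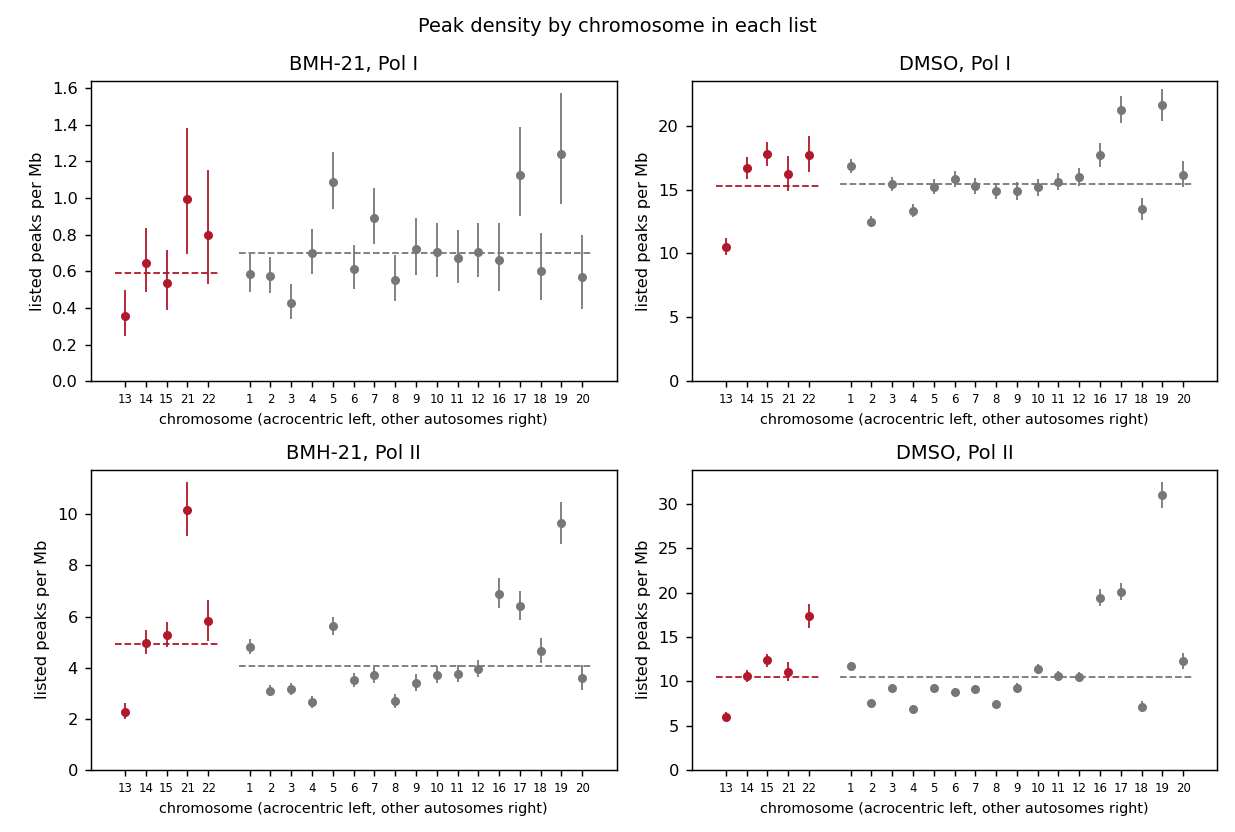
Listed peaks per Mb on each autosome in each of the 4 lists, with acrocentric chromosomes in red at left, other autosomes in grey, exact Poisson 95% intervals as bars and the pooled density of each class as a dashed line. Chromosome 13 is lowest in every list, and chromosome 21 is highest in the BMH-21 Pol II list, at 10.2 peaks per Mb.

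The ratio of BMH-21 to DMSO peak number put the 2 treatments side by side. For Pol II it was 0.470 on the acrocentric chromosomes (0.443 to 0.498) and 0.388 on the other autosomes (0.379 to 0.397). By chromosome it was 0.380 on 13, 0.472 on 14, 0.427 on 15, 0.918 on 21 and 0.335 on 22. The median of these 5 was 0.427, against a median of 0.367 and a range from 0.293 to 0.656 over the other 17 autosomes. Chromosome 21, with 358 peaks after BMH-21 and 390 after DMSO, ranked first of 22 and its interval, 0.793 to 1.06, lay above that of every other autosome. Of those 358 peaks, 229 lay in 4 clusters described below, so they are not independent counts. Chromosome 22 had 204 peaks after BMH-21 and 609 after DMSO, and ranked 18. The acrocentric ratio without chromosome 21 was 0.414.

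Part of this difference lay in dense runs of Pol II peaks. A dense run was taken as 10 or more listed Pol II peaks of one list with no gap over 10 kb. Without the peaks of any list that touched a run of either Pol II list, the Pol II ratio was 0.392 on the acrocentric chromosomes (0.365 to 0.419), from 1144 peaks after BMH-21 and 2922 after DMSO. On the other autosomes it was 0.375 (0.365 to 0.385), and these intervals overlap. Chromosome 21 then stood at 0.337 (0.271 to 0.418), with 115 peaks after BMH-21 and 341 after DMSO, and ranked 16 of 22. Chromosome 14 stood at 0.370, chromosome 22 at 0.335, chromosome 13 at 0.412 and chromosome 15 at 0.464 (0.409 to 0.525), which ranked second. Among the other autosomes, chromosome 18 fell from 0.656 to 0.369 and chromosome 5 from 0.607 to 0.489. Some rose, as chromosome 10 did from 0.327 to 0.411. The acrocentric share of BMH-21 Pol II peaks was 13.2% without runs (12.5 to 13.9), against 12.7% of DMSO Pol II peaks (12.3 to 13.1). Leaving out the runs of both lists thus lowered the ratio on chromosomes 14 and 21 and raised it on chromosomes 13 and 15. With only the BMH-21 runs left out, chromosome 15 stood at 0.392 and the other autosomes at 0.337.

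For Pol I the ratio was 0.0385 on the acrocentric chromosomes (0.0332 to 0.0444) and 0.0453 on the other autosomes (0.0431 to 0.0476), and these intervals overlap. By chromosome it was 0.0336 on 13, 0.0387 on 14, 0.0301 on 15, 0.0613 on 21 and 0.0449 on 22. Chromosome 21 had 35 Pol I peaks after BMH-21 and 571 after DMSO, and ranked second of 22, with an interval from 0.0423 to 0.0863. Chromosome 15 had 44 after BMH-21 and 1464 after DMSO, and ranked 21. Dense Pol II runs held 3 of the 198 BMH-21 Pol I peaks and 77 of the 5141 DMSO Pol I peaks, so the ratio without them was again 0.0385.

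**Figure D2:**
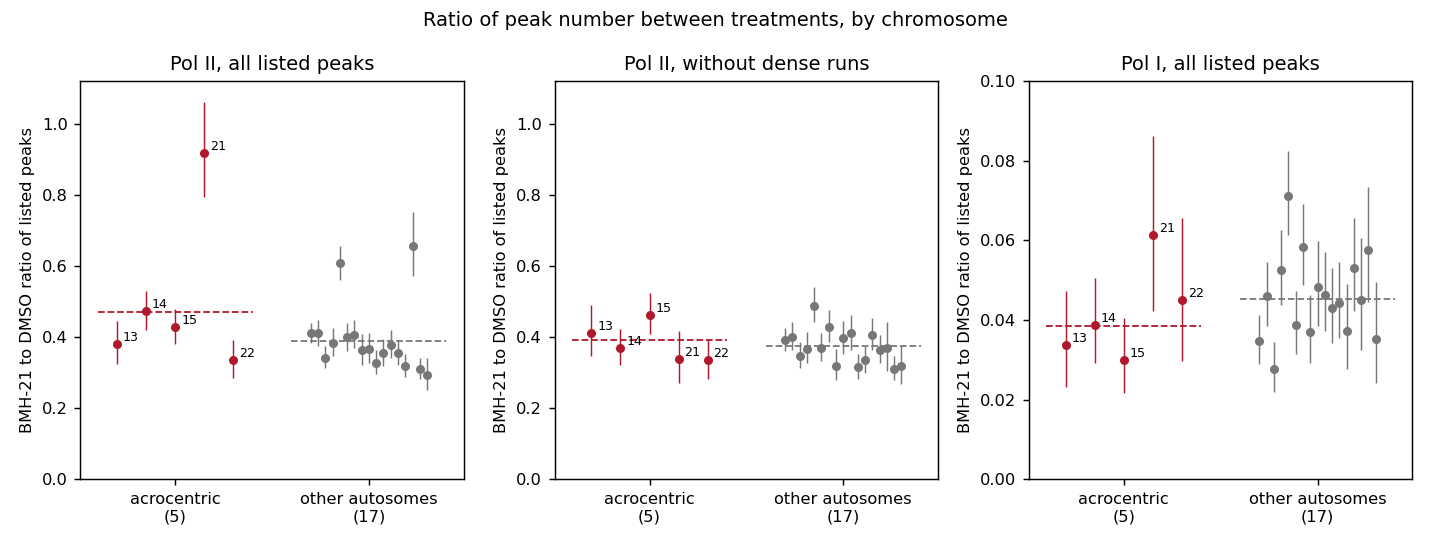
BMH-21 to DMSO ratio of listed peak number on each autosome for Pol II with all peaks, Pol II without dense runs and Pol I, with exact 95% intervals and the pooled ratio of each class as a dashed line; the Pol I axis ends at a lower value. Chromosome 21 is at 0.918 with all Pol II peaks and at 0.337 without runs, inside the range of the other autosomes.

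The lists skip running numbers, and the span of numbers on a chromosome gives a second count beside the listed peaks. On the acrocentric chromosomes the listed share of numbers was 11.2% for BMH-21 Pol I and 76.8% for DMSO Pol I, against 12.6% and 76.7% on the other autosomes. It was 24.8% for BMH-21 Pol II and 51.4% for DMSO Pol II, against 22.7% and 52.3% on the other autosomes. The ratio of number spans was 0.976 for Pol II on the acrocentric chromosomes and 0.892 on the others, and 0.263 for Pol I on the acrocentric chromosomes and 0.276 on the others. By this count chromosome 21 was again first for Pol II, at 1.41, from 1143 numbers after BMH-21 and 808 after DMSO. The size of each ratio therefore depended on which peaks were listed, and chromosome 21 stood apart by both counts.

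Distance was measured on each long arm from the first listed peak of any list beyond the last stretch of at least 3 Mb without a listed peak. The first peak of the long arm lay at base 19129300 on chromosome 13, 19001115 on 14, 20100833 on 15, 14689884 on 21 and 16107513 on 22. On chromosomes 13, 14, 15 and 22 no peak of any list lay before it. In the first 5 Mb of the 5 long arms there were 31 Pol I peaks after BMH-21 and 431 after DMSO, and 193 Pol II peaks after BMH-21 and 249 after DMSO.

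BMH-21 Pol II density was 7.72 peaks per Mb at 0 to 5 Mb (6.67 to 8.89), 11.8 at 5 to 10 Mb (10.5 to 13.3), 7.48 at 10 to 15 Mb (6.45 to 8.63) and 2.52 at 15 to 20 Mb (1.94 to 3.22). DMSO Pol II density over the same bins was 9.96, 11.4, 7.64 and 11.5 peaks per Mb. The Pol II ratio was therefore 0.775, 1.04, 0.979 and 0.219. Without dense runs the BMH-21 density was 6.20, 2.96, 1.68 and 2.40 peaks per Mb, and the ratio was 0.705, 0.327, 0.273 and 0.361. The bins from 5 to 15 Mb were high with runs and low without them, whereas the first bin stayed high in both counts. In later bins without runs the ratio ran from 0.182 to 0.509, and the highest of these bins, at 75 to 80 Mb, had 54 peaks after BMH-21 and 106 after DMSO. On the other autosomes the Pol II ratio of the first 5 Mb was 0.513 with all peaks and 0.506 without runs. Their ratios over whole chromosomes were 0.388 and 0.375, so the first bin lay above the whole-chromosome ratio on both classes of chromosome. On the other autosomes it was not the highest bin. With all peaks their ratio was 0.553 at 5 to 10 Mb and 0.583 at 35 to 40 Mb. Without runs it reached 0.532 at 145 to 150 Mb, from 25 peaks after BMH-21 and 47 after DMSO.

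For Pol I, BMH-21 density was 1.24 peaks per Mb at 0 to 5 Mb (0.843 to 1.76), 0.320 at 5 to 10 Mb (0.138 to 0.631), 0.720 at 10 to 15 Mb and 0.480 at 15 to 20 Mb. DMSO density was 17.2, 13.8, 14.1 and 14.4 peaks per Mb in these bins. The Pol I ratio was 0.0719 in the first 5 Mb (0.0483 to 0.104) and 0.0346 from there to the arm end (0.0294 to 0.0405). On the other autosomes, measured in the same way, it was 0.0748 in the first 5 Mb (0.0597 to 0.0927) and 0.0452 beyond (0.0423 to 0.0481). A higher Pol I ratio at the start of the long arm was thus seen on both classes of chromosome. Of the 31 BMH-21 Pol I peaks in the first 5 Mb, 12 lay on chromosome 21, 8 on 14, 6 on 15, 5 on 22 and 0 on 13. The first BMH-21 Pol I peak on chromosome 13 lay 11.3 Mb along the arm, with 80 DMSO Pol I peaks between 5 and 10 Mb and 57 before that.

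**Figure D3:**
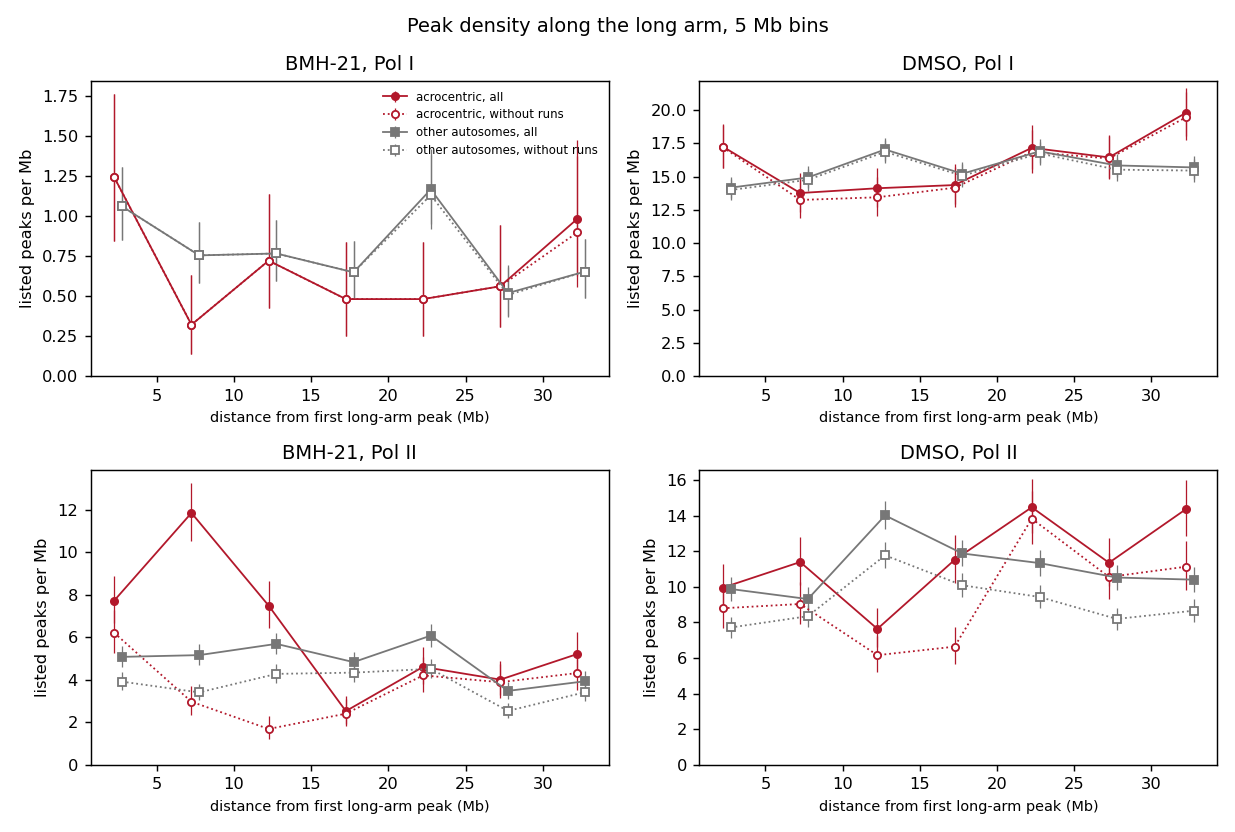
Listed peaks per Mb in 5 Mb bins along the long arm for each list, over the 5 acrocentric chromosomes (red circles) and the other 17 autosomes (grey squares), with all peaks (filled, solid line) and without dense Pol II runs (open, dotted line); bars are exact Poisson 95% intervals, and each panel has its own axis from 0. The acrocentric BMH-21 Pol II density reaches 11.8 peaks per Mb at 5 to 10 Mb with runs and is 2.96 there without them.

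The excess at the start of the arm was strongest in the first 2 Mb. There the acrocentric long arms had 125 Pol II peaks after BMH-21 and 80 after DMSO, a ratio of 1.56 (1.17 to 2.10), and without runs 87 after BMH-21 and 51 after DMSO, a ratio of 1.71 (1.19 to 2.46). On the other autosomes there were 172 after BMH-21 and 254 after DMSO, a ratio of 0.677 (0.555 to 0.825). Between 2 and 5 Mb the acrocentric ratio was 0.402 (0.299 to 0.536), against 0.442 on the other autosomes (0.380 to 0.512).

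By chromosome, the first 2 Mb had 54 Pol II peaks after BMH-21 and 24 after DMSO on chromosome 15, and 27 after BMH-21 and 7 after DMSO on chromosome 14. Chromosome 22 had 17 after BMH-21 and 8 after DMSO, chromosome 13 had 12 in each list, and chromosome 21 had 15 after BMH-21 and 29 after DMSO. BMH-21 peaks thus outnumbered DMSO peaks on chromosomes 14, 15 and 22. On chromosome 21 the DMSO peaks included a run of 25 peaks over NRIP1, described below. Without chromosome 15 the acrocentric ratio was 1.27 (0.881 to 1.83), and without runs as well 1.60 (0.993 to 2.62). Among the other autosomes chromosome 1 had 84 Pol II peaks after BMH-21 and 8 after DMSO in its first 2 Mb, so the pattern was not confined to acrocentric chromosomes. Without chromosome 1 the ratio of the other autosomes was 0.358 (0.277 to 0.458). The windows of 2 Mb and these omissions were chosen after the values were seen.

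Chromosome 21 was the one acrocentric chromosome with listed peaks on its short arm, in a block from 9414214 to 11186977. The block held 27 Pol II peaks after BMH-21 and 9 after DMSO, a ratio of 3 (1.37 to 7.25), against 0.869 on the long arm of chromosome 21 (0.748 to 1.01). It held 5 Pol I peaks after BMH-21 and 27 after DMSO, a ratio of 0.185 (0.0557 to 0.488), against 0.0551 on the long arm (0.0368 to 0.0796). Pol II density in the block was 15.2 peaks per Mb after BMH-21 (10.0 to 22.2) and 5.08 after DMSO (2.32 to 9.64). Pol I density there was 2.82 per Mb after BMH-21 (0.916 to 6.58) and 15.2 after DMSO (10.0 to 22.2). The widest peak of the block was a DMSO Pol I peak of 6387 bp, the widest Pol I peak on any acrocentric chromosome. A run of 10 BMH-21 Pol II peaks lay inside the block at chr21:9667342-9689644. Without the block the acrocentric ratio was 0.463 for Pol II and 0.0377 for Pol I, so the block had little weight in either.

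The BMH-21 Pol II list had 10 dense runs on the acrocentric chromosomes, which held 417 peaks, 25.2% of the Pol II peaks there, and 42 runs on the other autosomes, which held 13.4% of theirs. Chromosome 21 had 4 runs with 229 of its 358 peaks, chromosome 14 had 3 with 150 of 440, chromosome 15 had 3 with 38 of 435, and chromosomes 13 and 22 had 0. Peaks covered 73.0% of the length of the acrocentric runs and 51.7% of that of the others. The genes named below were placed from general knowledge of hg19. A RefSeq table on GRCh38.p14 was used only to check chromosome and order for 21 names, which include all those below and some not given here. All 21 lay on the same chromosome and in the same order.

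The longest stretch of runs lay on chromosome 21 over NCAM2, which encodes a neural cell adhesion molecule. From 22370429 to 22880900 there were 3 runs of 151, 43 and 25 peaks. This interval held 220 Pol II peaks after BMH-21 and 16 after DMSO, and 0 Pol I peaks after BMH-21 and 19 after DMSO. Pol II peaks covered 232 kb of it after BMH-21 and 13.7 kb after DMSO. The 3 runs made up 61.2% of the BMH-21 Pol II peaks of chromosome 21 and skipped no running number. The highest-scored BMH-21 Pol II peak of the chromosome, chr21:22370429-22377281, opened the first run with a score of 3100. This value was the highest on the autosomes and was shared by 14 BMH-21 Pol II peaks, 2 of them acrocentric, so it does not rank these peaks among themselves.

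On chromosome 14 the main runs lay at PRKD1, the gene of a serine/threonine protein kinase. From 30133304 to 30406954 there were runs of 92 and 47 peaks, 31.6% of the BMH-21 Pol II peaks of the chromosome. The interval held 139 Pol II peaks after BMH-21 and 0 after DMSO, and 0 Pol I peaks after BMH-21 and 22 after DMSO. BMH-21 Pol II peaks covered 178 kb, which was 62.7% of all they covered on chromosome 14. The highest-scored BMH-21 Pol II peak there, chr14:30354993-30370529, was 15.5 kb wide with a score of 3100, and a DMSO Pol I peak overlapped it. Both loci were picked as runs of the BMH-21 Pol II list, with which the DMSO Pol II list shares no position. The choice itself therefore favours low DMSO Pol II numbers inside the runs, by an amount that was not measured. The runs over NCAM2 held 0, 0 and 1 DMSO Pol II peaks, and the rest of the 16 lay between them. At the Pol I ratios of 0.0613 on chromosome 21 and 0.0387 on chromosome 14, a count of 0 Pol I peaks after BMH-21 does not set these loci apart.

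A pair of runs lay within 1 Mb of the start of the long arm. On chromosome 14 a run of 11 peaks lay at chr14:19672922-19705716, 0.672 Mb along the arm, and on chromosome 15 a run of 15 peaks lay at chr15:20861452-20894312, 0.761 Mb along. They were 32.8 kb and 32.9 kb long, their widest peaks were 5117 and 5152 bp, and their top scores were 2426 and 1228. In each of them a few peaks of several kb lay end to end, among narrow peaks with scores mostly under 100. DMSO Pol II peaks numbered 1 in the chromosome 14 run and 3 in the chromosome 15 run. BMH-21 Pol I peaks numbered 0 in both, and DMSO Pol I peaks 0 and 1. Whether the 2 runs share duplicated sequence was not tested.

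**Figure D4:**
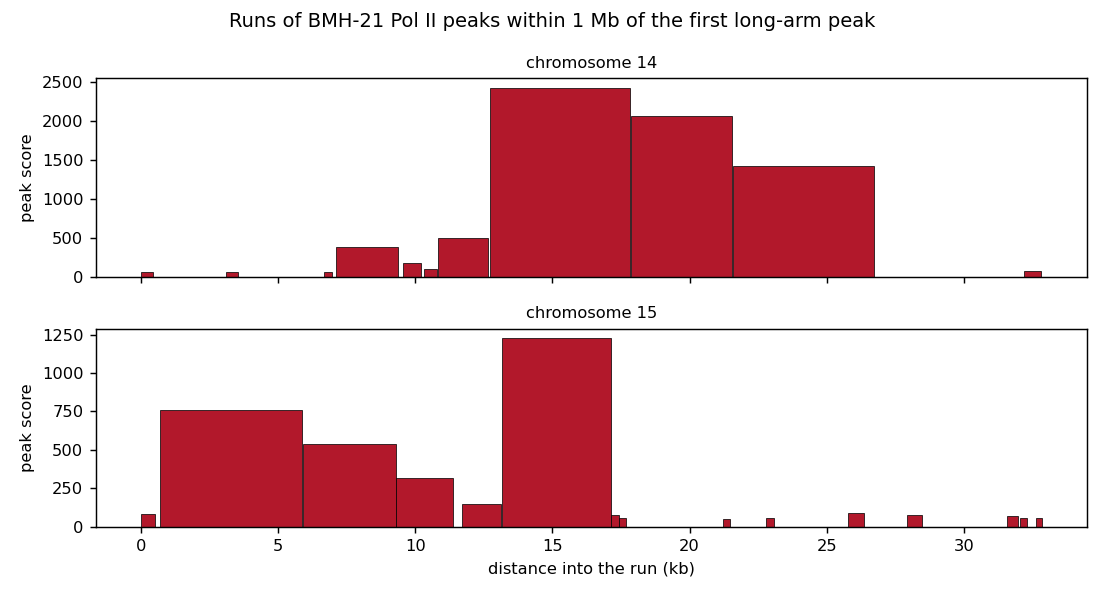
Score of each BMH-21 Pol II peak against distance into the run, for the runs near the start of the long arm of chromosomes 14 and 15; each bar spans a peak's width. The chromosome 14 run has its highest scores, up to 2426, past 12 kb, and the chromosome 15 run reaches 1228 past 13 kb.

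The remaining BMH-21 runs were sparser. On chromosome 15 there were 12 peaks at chr15:82951714-82974813 and 11 at chr15:84870132-84891971, with 16.8% and 17.6% of their length covered and top scores of 144 and 138. The short-arm run of chromosome 21 had 28.6% covered and a top score of 107. DMSO Pol II peaks in these 3 runs numbered 1, 0 and 1.

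The DMSO Pol II list had 27 dense runs on the acrocentric chromosomes, with 596 peaks, 16.9% of the Pol II peaks there, and 229 on the other autosomes, with 18.1% of theirs. Unlike the BMH-21 runs they occurred on all 5 chromosomes, with 5 on 13, 7 on 14, 9 on 15, 3 on 21 and 3 on 22. Peaks covered 25.8% of their length, against 73.0% for the acrocentric BMH-21 runs. On chromosome 14 the run with most peaks was 1 of 4 runs from 38075657 to 38344703, next to FOXA1, the gene of a forkhead factor that opens chromatin for the androgen receptor in prostate cells. That interval held 4 Pol II peaks after BMH-21 and 122 after DMSO, and 0 Pol I peaks after BMH-21 and 7 after DMSO.

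The largest DMSO run of chromosome 15, at chr15:29982308-30111715 over TJP1, a tight junction scaffold gene, had 3 Pol II peaks after BMH-21 and 63 after DMSO. A second one at chr15:93468527-93567838 over CHD2, a chromatin remodeller gene, had 3 after BMH-21 and 59 after DMSO. On chromosome 13 the largest, at chr13:95665099-95776838 over ABCC4, a membrane exporter gene, had 12 after BMH-21 and 45 after DMSO. Also on chromosome 13, 3 runs lay over MYCBP2, a ubiquitin ligase gene, from 77615065 to 77881622. That interval, with the gaps between the runs, had 19 after BMH-21 and 70 after DMSO. On chromosome 21 the largest, at chr21:16337229-16424435 over NRIP1, a nuclear receptor corepressor gene, had 12 after BMH-21 and 25 after DMSO. On chromosome 22 the largest, at chr22:29654935-29694082 over EWSR1, an RNA-binding protein gene, had 5 after BMH-21 and 22 after DMSO. These intervals were picked as DMSO runs, so the choice itself favours lower BMH-21 numbers in them, by an amount that was not measured. The Pol II ratio over all acrocentric peaks was 0.470. Over all 27 runs, BMH-21 Pol II peaks numbered 0 to 12, with 0 in 5 of them.

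**Figure D5:**
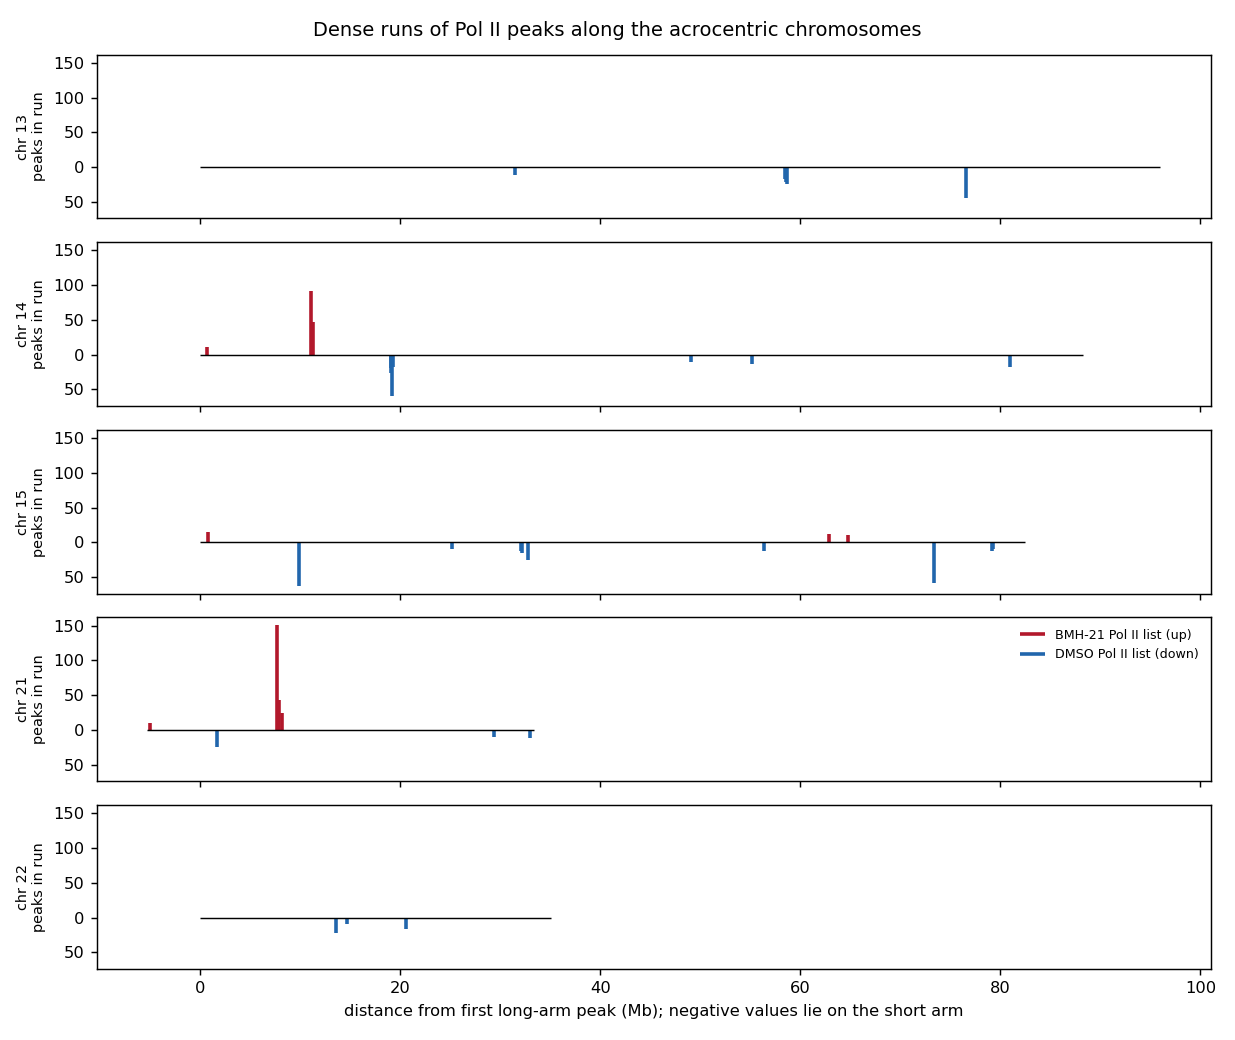
Dense runs of Pol II peaks on each acrocentric chromosome by distance from the first long-arm peak (Mb), with the number of peaks in each run drawn upward for the BMH-21 list (red) and downward for the DMSO list (blue); the horizontal line is the span from first to last listed peak. The BMH-21 runs with 151 peaks on chromosome 21 and 92 on chromosome 14 are the tallest, and chromosomes 13 and 22 have DMSO runs only.

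Pol I runs of the same definition were rare. The BMH-21 Pol I list had 0 on the acrocentric chromosomes and 9 on the other autosomes. The DMSO Pol I list had 1 on the acrocentric chromosomes, at chr22:46450862-46483667, and 10 on the others. This chromosome 22 run held 5 Pol I peaks after BMH-21 and 16 after DMSO, and 0 Pol II peaks in either list. Those 5 were 5 of the 28 BMH-21 Pol I peaks on chromosome 22.

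The length covered by peaks moved the picture further toward chromosome 21. On the acrocentric chromosomes Pol II peaks covered 965 kb after BMH-21 and 2045 kb after DMSO, a ratio of 0.472, against 0.265 on the other autosomes. On chromosome 21 they covered 416 kb after BMH-21 and 235 kb after DMSO, a ratio of 1.77. A single BMH-21 Pol II peak of 133 kb, chr21:17783740-17916828, lay in no run. It falls in MIR99AHG, the host gene of a microRNA cluster, and had a score of 164. The next widest on the chromosome was 16.8 kb. The 133 kb peak overlapped 4 Pol I peaks after BMH-21 and 4 after DMSO. It overlapped 0 DMSO Pol II peaks, as did every BMH-21 Pol II peak, because the 2 Pol II lists share no position. Without dense runs the ratio of covered length on chromosome 21 was 0.834, and without this peak as well it was 0.194, with 40.3 kb after BMH-21 and 208 kb after DMSO. The acrocentric ratio without runs and without this peak was 0.205, against 0.197 on the other autosomes.

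Peak widths differed by treatment on the acrocentric chromosomes. The median Pol I peak was 210 bp wide after BMH-21 and 457 bp after DMSO, and the median Pol II peak was 283 bp after BMH-21 and 496 bp after DMSO. On the other autosomes the median was 216 bp after BMH-21 and 467 bp after DMSO for Pol I, and 267 bp after BMH-21 and 500 bp after DMSO for Pol II. Chromosome 21 had the widest median BMH-21 Pol II peak of the 5, at 476.5 bp, and chromosome 22 the narrowest, at 247 bp. Widths over 10 kb were found in 3 acrocentric and 15 other peaks of the BMH-21 Pol II list and in 0 of each other list on the autosomes. Among acrocentric Pol I peaks, 90.4% after BMH-21 and 50.9% after DMSO had an authors' score under 100. On the other autosomes the Pol I shares were 83.1% after BMH-21 and 50.9% after DMSO. Among acrocentric Pol II peaks the shares were 78.4% after BMH-21 and 64.9% after DMSO. On the other autosomes the Pol II shares were 88.1% after BMH-21 and 64.7% after DMSO. The score has no stated scale, so these shares do not compare signal between treatments.

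Overlap of the antibodies was measured within a treatment, as the share of Pol I peaks with at least 1 bp in a Pol II peak. After BMH-21 it was 8.08% on the acrocentric chromosomes (4.69 to 12.8) and 9.82% on the other autosomes (8.43 to 11.4). After DMSO it was 14.3% on the acrocentric chromosomes (13.3 to 15.2) and 13.99% on the others (13.6 to 14.3). Acrocentric and other autosomes did not differ beyond these intervals in either treatment. Chromosome 22 had the highest DMSO share of the 5, at 18.9% (15.9 to 22.2), and 0 of 28 Pol I peaks overlapped after BMH-21 (0 to 12.3). Chromosome 21 had 8 of 35 overlapped after BMH-21, 22.9% (10.4 to 40.1), of which 4 lay under the 133 kb peak. In the other direction, 0.725% of acrocentric BMH-21 Pol II peaks touched a BMH-21 Pol I peak (0.375 to 1.26), against 1.76% on the other autosomes (1.50 to 2.04). Without dense runs these shares were 0.962% (0.481 to 1.71) and 1.93% (1.63 to 2.27), so these intervals then met. For DMSO Pol II peaks the share was 20.7% on the acrocentric chromosomes and 20.5% on the others.

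Lists of the same antibody had no overlapping peaks between treatments. On the acrocentric chromosomes 0 of 198 BMH-21 Pol I peaks overlapped a DMSO Pol I peak, although 17.2% lay within 1 kb of one. For Pol II it was 0 of 1656, with 16.6% within 1 kb. On the other autosomes it was 0 of 1649 for Pol I, with 12.3% within 1 kb, and 0 of 9565 for Pol II, with 19.8%. The deposited lists thus show no acrocentric position in both treatments, and a position in 1 list does not show that the other library lacked the polymerase there.

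The highest-scored peaks of a list are given by chromosome. For Pol I after BMH-21 those of chromosomes 13 and 15 were chr13:45007639-45008386 in TSC22D1, a transcriptional regulator gene (score 300), and chr15:45007576-45007914 in B2M, the gene of the light chain of class I histocompatibility molecules (256). The chromosome 15 peak overlapped a BMH-21 Pol II peak, and the chromosome 13 peak did not. On chromosomes 21 and 22 the highest were chr21:17699114-17699492 (143) and chr22:47255734-47255915 (120). For Pol I after DMSO they were chr22:50967999-50970828 at TYMP, the thymidine phosphorylase gene (1036), and chr21:45079033-45080240 at the start of RRP1B, the gene of a nucleolar protein of ribosome biogenesis (1031). Those on chromosomes 15, 14 and 13 were chr15:89921443-89922263 (838), chr14:105956907-105958159 (829) and chr13:91178258-91179436 (668).

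For Pol II after BMH-21 the highest on chromosomes 14, 15 and 21 lay in the runs described above, and scores reached 179 on chromosome 13, at chr13:71075283-71075818, and 170 on chromosome 22, at chr22:36718792-36719479. For Pol II after DMSO they were chr14:24573509-24577643 (1652), chr21:33984454-33986066 (884), chr15:90293668-90295479 (815), chr22:17639625-17641239 (643) and chr13:20532232-20533858 at ZMYM2, a zinc finger gene (624). DMSO Pol I peaks overlapped 3 of these 5, those on chromosomes 13, 15 and 22. The highest-scored DMSO Pol II peaks of chromosomes 13 and 22 lay 1.40 and 1.53 Mb from the start of the long arm, within the first 2 Mb.

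The first listed Pol II peak of the arm came sooner after BMH-21 than after DMSO on all 5 chromosomes. These distances were not taken on the other autosomes, so whether this is particular to acrocentric chromosomes was not tested. On chromosome 22 it lay 0.0329 Mb along the arm after BMH-21 and 1.19 Mb after DMSO. On chromosome 21 it lay at 0.0558 Mb after BMH-21 and 0.709 Mb after DMSO, on 14 at 0.0652 Mb after BMH-21 and 0.664 Mb after DMSO, and on 15 at 0.0445 Mb after BMH-21 and 0.537 Mb after DMSO. On chromosome 13 the distances were nearly alike, 0.0504 Mb after BMH-21 and 0.0558 Mb after DMSO. The first Pol I peak was the origin itself on chromosomes 14 and 15 after BMH-21 and on 13, 21 and 22 after DMSO.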

How the data were processed

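The files analysed were 4 peak lists, 1 per ChIP library, and samples were grouped by their titles. The build was hg19 and the tools CASAVA 1.8.2, Bowtie2 2.2.1 and deepTools 3.5.4, per the submitters' processing notes. Each deposited peak name starts with MACS. Settings, how inputs were used, and what was done with duplicate and repeated reads are not given in the sources used. The deposited score is headed as a p-value per the file headers, has no stated scale and starts at 50. It therefore ranked or filtered peaks only within their list, except in 1 alternative. There the median score of the DMSO list was the lower limit for both treatments. Shares of peaks under a score of 100 and the highest score on the autosomes are also given over several lists. They do not compare signal between lists.

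Starts were made 1-based. Ratios and shares have exact Clopper-Pearson 95% intervals, and densities exact Poisson intervals. Run and overlap counting was tested on simulated data. Named regions were the highest-scored and first long-arm peak of each list, all dense BMH-21 Pol II runs and the largest other run per chromosome, of which 1 is not reported here. CHD2, MYCBP2, MIR99AHG, the rule for the start of the long arm, the first 2 Mb and the short-arm block were picked after values were seen. The members and lists were chosen with earlier results of these data known. Python 3.11.15, NumPy 2.4.6, pandas 2.3.3, SciPy 1.17.1 and matplotlib 3.10.9 were used.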

Additional observations from a re-analysis of the deposited data

How the results depend on the processing

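Of 72 alternative values for 16 results, 43 lay within the counting interval of the main value and 29 outside it. A change of direction meant a ratio that crossed 1, which 0 did. Whether the difference from the other autosomes kept its direction was not counted. The Pol II ratio on the acrocentric chromosomes, 0.470, was 0.392 without dense runs, 0.387 with run gaps up to 20 kb, 0.386 up to 5 kb, 0.395 for runs of at least 20 peaks, 0.352 without BMH-21 runs only, 0.425 with peaks within 1 kb merged, 0.279 at scores from the DMSO median, 0.222 for peaks of at least 300 bp, 0.976 by number span and 0.427 as the median chromosome. Leaving out 1 chromosome at a time gave 0.414 to 0.498 for Pol II, with 0.414 without chromosome 21, and 0.0357 to 0.0419 for Pol I. The Pol I ratio, 0.0385, was 0.00737 at scores from the DMSO median, 0.00673 for peaks of at least 300 bp, 0.263 by number span and 0.0191 by covered length. At scores from the DMSO median the acrocentric share was 6.21% of BMH-21 Pol I and 20.8% of BMH-21 Pol II peaks, and without runs the share of BMH-21 Pol II peaks was 13.2%. First-bin density changed to 0.780 per Mb for BMH-21 Pol I with bins of 10 Mb, to 12.3 and 15.5 for DMSO Pol I with bins of 2 and 10 Mb, and to 6.20 without runs, 12.5 and 9.78 with those bins for BMH-21 Pol II. For DMSO Pol II it was 8 with bins of 2 Mb and 12.8 from its own first peak. Overlap of DMSO Pol I peaks by Pol II was 18.1% within 1 kb. The listed share of numbers without runs was 18.9% for BMH-21 Pol II and 48.3% for DMSO Pol II. Beyond the runs, peaks and chromosomes each setting leaves out, the cause was not tested. No paired analysis was possible because each group has 1 library. With 198 acrocentric BMH-21 Pol I peaks, bins and single chromosomes rest on few peaks.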
